A study of Mus musculus with 16 samples.

Results

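Endothelin signaling, nitric oxide and the cyclic nucleotides were followed here through 9 genes of the 31055 features in the count matrices. The genes were the ligand Edn1, its receptors Ednra and Ednrb, its activating protease Ece1, the nitric oxide synthase Nos3, the kinase Prkg1, the phosphodiesterases Pde5a and Pde3a, and the adenylyl cyclase Adcy5. They were taken by symbol, and all 9 were present. Their counts were read in 3 classes of aortic cells. Vascular smooth muscle cells (VSMCs) were cells with at least 5 unique molecular identifiers (UMIs, 1 per captured RNA molecule) of Myh11 and more of Myh11 than of Dcn. Fibroblasts were cells with at least 5 UMIs of Dcn and more of Dcn than of Myh11. Endothelial cells held at least 2 UMIs of Pecam1 and Cdh5 together.

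The 16 single-cell RNA sequencing libraries came from the thoracic aorta, root to arch, of male mice on the 129S6/SvEv background. All mice carried Myh11-CreER, a Cre recombinase that acts in smooth muscle once tamoxifen is given, and both genotypes were given tamoxifen as young adults. In Smad3SmKO mice both copies of Smad3, which encodes a transcription factor of the TGF-β pathway, were floxed, so that the deletion is by design limited to the Myh11 lineage, and Smad3+/+ mice were the controls. At 10 weeks after deletion there were 2 Smad3+/+ and 2 Smad3SmKO libraries, and at 18 weeks 5 and 7. The labels also gave 6 batches, a digestion of 30 or 60 min and, for some mice, a conditional GFP tracer. All 10 week libraries belonged to 1 batch, so time and batch cannot be told apart for levels, and only the genotype effect was compared between the times. Each library came from 1 mouse, so p-values cover the spread between mice and libraries together.

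The matrices held 66349 barcodes and 508775009 UMIs, between 12539539 and 52843031 UMIs per library, and 50858 cells passed the filters. Of these, 8950 were VSMCs (22 to 1706 per library), 36066 fibroblasts and 3303 endothelial cells. The Smad3 counts were not lower in the Smad3SmKO VSMCs, although the study reported less Smad3 RNA and protein in Smad3SmKO aortas by qPCR and immunoblot. The Smad3 level in VSMCs was 7.44 ± 2.79 CPM (UMIs per 1000000 UMIs of the class in that library) in Smad3+/+ and 9.32 ± 4.37 in Smad3SmKO libraries at 18 weeks (SD, n = 5 and 7). The log2 fold change was 0.04 at 18 weeks (SE 0.38) and 0.45 at 10 weeks (SE 0.38). The counts are per whole gene from the 3′ end and cannot show the loss of the floxed exons, so they do not check the labels. GFP went against the tracer labels in 4 libraries. Smad3+/+ 18 week replicates 4 and 5, labelled with the tracer, held 0 GFP UMIs, and Smad3SmKO 10 week replicates 1 and 2, labelled without it, held 246 and 165. The same Smad3+/+ pair shared the most barcodes of any 2 libraries (3507, against a median of 3 over 120 pairs). Edn1, the member with the largest genotype difference, is also given without that pair.

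Endothelin-1 is made by endothelial cells as an inactive precursor that endothelin-converting enzyme cuts to the active peptide. It acts on smooth muscle through the ETA receptor, which couples to Gq proteins, phospholipase C and calcium release and makes the muscle contract, while the ETB receptor on endothelium clears the peptide and drives nitric oxide release. Nitric oxide from the endothelial synthase crosses to the muscle, where soluble guanylyl cyclase makes cGMP, the kinase encoded by Prkg1 relaxes the cell and phosphodiesterase 5 ends the signal. The parallel cAMP arm runs from adenylyl cyclases to protein kinase A, and phosphodiesterase 3, which cGMP inhibits, joins the arms.

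Most members fell along these roles. The ETA receptor gene Ednra did not, with a median of 6.41 CPM in VSMCs against 13.0 in fibroblasts and 12.5 in endothelium. Ligand, protease, ETB receptor and nitric oxide synthase stood highest in endothelium, and kinase, phosphodiesterases and adenylyl cyclase stood highest in VSMCs (the plot of levels by class). Levels are in CPM and are compared between classes for 1 gene, never between genes. Classes were compared with edgeR with the library as a block. At an adjusted p under 0.05, 74.6% of the 11974 genes tested differed between VSMCs and fibroblasts, 68.4% between endothelium and VSMCs, and 40.8% between endothelium and fibroblasts. Against this background 7, 8 and 5 of the 9 members differed. Such counts follow those of all genes and are not a result about the members, whose directions and sizes are given next.

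Edn1 (chr13:42301476-42307990, plus strand, mm10), which encodes the endothelin-1 precursor, ranged over the 16 libraries from 17.9 through a median of 121 to 479 CPM in endothelial cells. In fibroblasts the lowest, median and highest values were 3.78, 14.8 and 59.0, and in VSMCs 2.83, 13.0 and 36.8. Endothelium was above fibroblasts in 16 of 16 libraries and above VSMCs in 14. The log2 fold change was 2.79 (SE 0.29, adjusted p = 1.34e-10) against VSMCs and 2.36 (SE 0.24, adjusted p = 6.26e-10) against fibroblasts. VSMCs and fibroblasts did not differ beyond their spread, with a log2 fold change of -0.43 (SE 0.28, adjusted p = 0.160). That call turned on 1 library, since without Smad3SmKO 18 week replicate 7 the value was -0.70 (adjusted p = 0.00853). Edn1 RNA was concentrated in few cells. In endothelium 184 cells with 5 or more Edn1 UMIs held 79.8% of its UMIs, with up to 111 in 1 cell, and in fibroblasts 452 such cells held 51.7%, with up to 86. In VSMCs 29 such cells held 21.7%. Because fibroblasts were so many, they held 68.9% of all Edn1 UMIs in kept cells, endothelium 30.1% and VSMCs 10.9%, and cells in 2 classes count in both.

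The 300 bases around the Edn1 start (chr13:42301226-42301525, plus strand, mm10, RefSeq) are shown because Edn1 is the ligand of the system and had the largest genotype difference of the members at 18 weeks. The capitals mark TTATCT, the GATA letters AGATAA read on the opposite strand.
Edn1 promoter: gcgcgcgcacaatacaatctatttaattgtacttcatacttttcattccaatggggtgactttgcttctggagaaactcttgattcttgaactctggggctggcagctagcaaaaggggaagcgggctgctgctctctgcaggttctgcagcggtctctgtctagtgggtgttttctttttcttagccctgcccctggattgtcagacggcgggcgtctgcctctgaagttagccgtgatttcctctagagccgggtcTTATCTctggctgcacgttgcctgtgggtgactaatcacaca
AGATAA on either strand lies in 11.2% of the 32851 promoter windows of this length in the table. Among the 7 members with an entry it was found in Edn1 and Prkg1. None of the members' windows held a CArG box (1.63% of all windows), the AP-1 letters TGANTCA (7.81%) or the SMAD palindrome GTCTAGAC (0.213%). The searches took both strands and say only which letters lie in these windows.

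Ece1 (chr4:137862237-137965229, plus strand), which encodes the protease that makes active endothelin-1, was found in all classes. It ranged from 102 through 202 to 304 CPM in endothelium, from 60.0 through 98.1 to 138 in fibroblasts and from 18.0 through 28.5 to 79.3 in VSMCs. Every library had the same bottom to this order, since VSMCs were below fibroblasts and below endothelium in 16 of 16, and endothelium was above fibroblasts in 15. The log2 fold changes were 2.48 for endothelium against VSMCs (SE 0.12, adjusted p = 6.76e-19), 0.91 for endothelium against fibroblasts (SE 0.11, adjusted p = 1.31e-08) and -1.57 for VSMCs against fibroblasts (SE 0.12, adjusted p = 2.05e-14).

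The receptors split. Ednrb (chr14:103814625-103844402, minus strand), the ETB receptor gene, ranged from 13.0 through 30.1 to 82.3 CPM in endothelium, from 0 through 2.80 to 25.4 in VSMCs and from 0.0889 through 0.772 to 5.54 in fibroblasts. Endothelium was the highest class in nearly every library, above fibroblasts in 16 and above VSMCs in 15. The log2 fold change of endothelium was 4.90 against fibroblasts (SE 0.33, adjusted p = 1.00e-14) and 3.10 against VSMCs (SE 0.38, adjusted p = 5.12e-09). VSMCs were above fibroblasts by 1.79 (SE 0.43, adjusted p = 0.000317), although 2 libraries had no Ednrb UMI in VSMCs and 10 cells held 54.3% of the VSMC counts.

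Ednra (chr8:77663031-77724464, minus strand), the ETA receptor gene, was the member that separated the classes least. Its lowest, median and highest values were 3.12, 6.41 and 49.8 CPM in VSMCs, 6.92, 13.0 and 31.5 in fibroblasts and 3.84, 12.5 and 30.1 in endothelium. All 3 ranges overlapped. VSMCs were below fibroblasts in 11 of 16 libraries, with a log2 fold change of -0.75 (SE 0.26, adjusted p = 0.0109), which was -0.49 and missed the threshold in DESeq2 (adjusted p = 0.0851). Endothelium did not differ from VSMCs (0.45, SE 0.31, adjusted p = 0.205) or fibroblasts (-0.30, adjusted p = 0.393) by the test. The values of the VSMC libraries by digestion time are given further on.

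Nos3 (chr5:24364810-24384474, plus strand), the endothelial nitric oxide synthase, ranged from 4.13 through 19.9 to 34.4 CPM in endothelium. In VSMCs the highest library had 2.16 and 3 libraries had none, and in fibroblasts the range was 1.05 to 2.60. Endothelium was above both in 16 of 16 libraries, with no overlap of its range with theirs. The log2 fold change was 3.56 against VSMCs (SE 0.16, adjusted p = 1.26e-19) and 3.42 against fibroblasts (SE 0.13, adjusted p = 5.69e-22). VSMCs and fibroblasts differed by -0.14 (SE 0.17, adjusted p = 0.584).

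On the smooth muscle side, Prkg1 (chr19:30564489-31765033, minus strand), the cGMP-dependent kinase, ranged from 22.9 through 33.3 to 77.7 CPM in VSMCs. In fibroblasts it ranged from 4.03 through 10.3 to 20.8 and in endothelium from 4.30 through 9.09 to 28.9. The VSMCs were highest in every library, by a log2 fold change of 1.98 against fibroblasts (SE 0.12, adjusted p = 1.41e-16), and the log2 fold change of endothelium against VSMCs was -2.11 (SE 0.15, adjusted p = 1.98e-14).

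The phosphodiesterases were also highest in VSMCs. Pde5a (chr3:122728947-122859374, plus strand), which breaks down cGMP, ranged from 61.3 through 98.6 to 141 CPM in VSMCs, against 19.6 through 30.6 to 58.9 in fibroblasts and 18.0 through 34.4 to 114 in endothelium. Pde3a (chr6:141249269-141507448, plus strand), the cGMP-inhibited enzyme that breaks down cAMP, ranged from 101 through 186 to 291 in VSMCs, 24.4 through 36.3 to 103 in fibroblasts and 22.4 through 48.1 to 160 in endothelium. In VSMCs both were above fibroblasts in 16 of 16 libraries, Pde5a by 1.67 (SE 0.12, adjusted p = 1.24e-14) and Pde3a by 2.29 (SE 0.12, adjusted p = 1.68e-18) on the log2 scale. Endothelium was below VSMCs in 15 of 16 libraries for Pde5a and in 16 for Pde3a. Against VSMCs, it was at -1.56 for Pde5a (SE 0.14, adjusted p = 1.78e-12) and -2.01 for Pde3a (SE 0.13, adjusted p = 6.58e-16). Pde3a was also the member found in most VSMCs, with a UMI in 71.5% of them. Once each cell was thinned to 2000 UMIs, the share was 30.4% in VSMCs, 7.57% in endothelium, 6.83% in fibroblasts and 0.189% in leukocyte-marker cells.

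Adcy5 (chr16:35154877-35305738, plus strand), an adenylyl cyclase that makes cAMP, had the largest difference between VSMCs and fibroblasts of the members. It ranged from 121 through 153 to 247 CPM in VSMCs and from 4.34 through 8.04 to 52.6 in fibroblasts, so that the ranges did not overlap. The log2 fold change was 4.21 (SE 0.23, adjusted p = 2.79e-18), and 80.0% of all Adcy5 UMIs in kept cells were in VSMCs. A UMI was found in 68.9% of VSMCs. At 2000 UMIs per cell the share was 28.0%, against 3.69% in endothelium, 1.70% in fibroblasts and 0.341% in leukocyte-marker cells. In endothelium the range was 10.1 through 13.9 to 134, below VSMCs in 16 of 16 libraries (-3.04, SE 0.24, adjusted p = 1.36e-13). The window around its start is shown for that reason. It is 79.0% G and C, the Edn1 window 51.3%, and it held none of the letters searched, so no capitals are used.
Adcy5 promoter (chr16:35154614-35154913, plus strand, mm10): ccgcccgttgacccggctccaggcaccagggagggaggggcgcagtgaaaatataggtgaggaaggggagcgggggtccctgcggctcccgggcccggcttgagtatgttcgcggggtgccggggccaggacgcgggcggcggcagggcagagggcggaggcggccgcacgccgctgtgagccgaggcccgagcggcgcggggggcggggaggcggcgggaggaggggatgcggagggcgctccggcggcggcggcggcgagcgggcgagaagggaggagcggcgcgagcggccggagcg

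**Figure D1:**
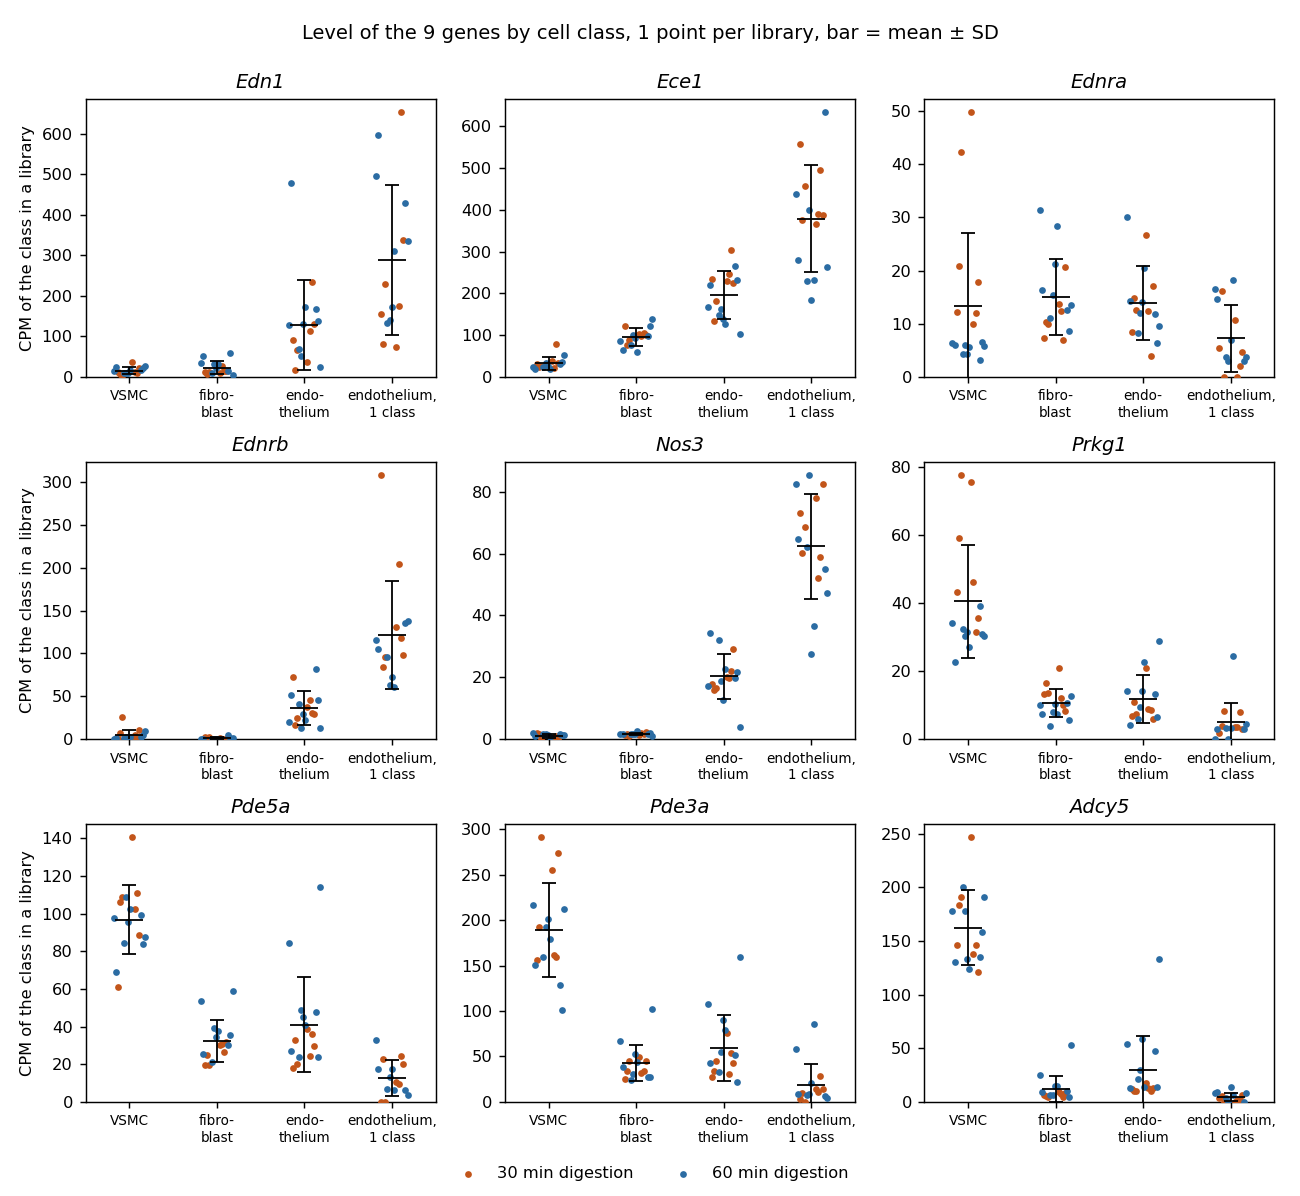
Levels of the 9 members, in CPM UMIs of the class, in each of the 16 libraries (points, coloured by digestion of 30 or 60 min) for VSMCs, fibroblasts, all endothelial cells and endothelial cells of 1 class (15 libraries), with bars at the mean and error bars of 1 SD. Edn1, Ednrb, Ece1 and Nos3 are highest in the endothelial columns, and Prkg1, Pde5a, Pde3a and Adcy5 in the VSMC column.

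The endothelial class held cells of more than 1 kind. Of its 3303 cells, 2049 (62.0%) also met the VSMC or fibroblast rule, and in a library's endothelial sum the 8 VSMC markers together had a median of 4117 and the 8 fibroblast markers 13475 CPM. Among the 1250 endothelial cells that met no other rule, from 15 libraries with at least 10 such cells, these medians were 752 and 942, and the median of the 10 endothelial markers was 4809 in place of 1926. Doublets were not called. In these cells the endothelial members were higher and the smooth muscle members lower than in the whole class. Edn1 was at 288 ± 185, Ednrb at 122 ± 62.8, Ece1 at 379 ± 127 and Nos3 at 62.3 ± 16.9 CPM (SD, n = 15). All of them were above VSMCs in 15 of 15 libraries, with log2 fold changes from 3.46 for Ece1 (SE 0.12) to 5.24 for Nos3 (SE 0.17). Adcy5 was at 4.51 ± 4.12 and Pde3a at 18.7 ± 23.2.

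This changed calls against fibroblasts. Adcy5, 1.17 above fibroblasts in the whole class (SE 0.24, adjusted p = 0.000152), was at -1.18 in cells of 1 class (SE 0.46, adjusted p = 0.0252). Pde3a went from 0.28 to -1.70 (adjusted p = 0.0728 and 1.24e-07), Pde5a from 0.11 to -1.59 (adjusted p = 0.534 and 2.37e-07) and Prkg1 from -0.14 to -1.47 (adjusted p = 0.513 and 4.89e-06). In endothelial cells that met no other rule these 4 genes were thus below fibroblasts as well as below VSMCs. Ednra did likewise, from -0.30 to -1.44 (adjusted p = 0.00656), and its value against VSMCs turned from 0.45 to -0.68 without passing the test (adjusted p = 0.241).

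**Figure D2:**
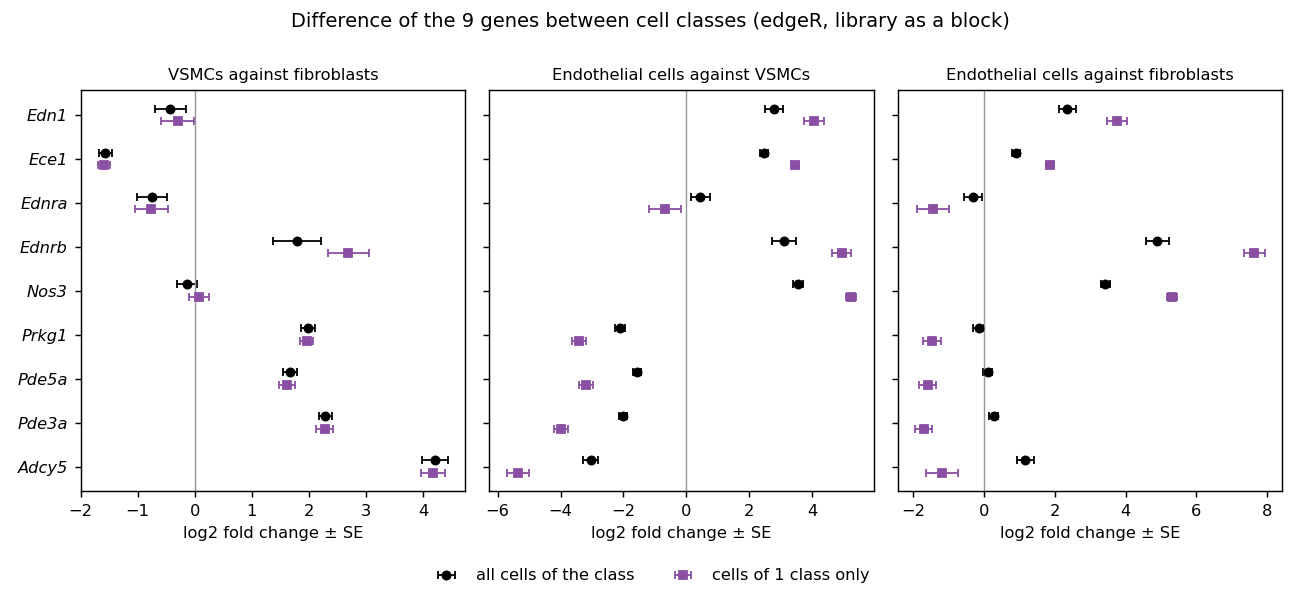
Log2 fold changes between classes (edgeR, library as a block) for the 9 members, with error bars of 1 SE, for all cells of a class and for cells of 1 class only. Nos3, Ednrb, Edn1 and Ece1 lie above 0 in both endothelial contrasts, and Adcy5 against fibroblasts moves from 1.17 to -1.18 when cells of 2 classes are left out.

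Other genes of the same routes were taken from 4 lists. Of 18 tested genes of the nitric oxide and cGMP list, 10 were higher and 5 lower in VSMCs than in fibroblasts (median log2 fold change 0.64, against -0.02 over all genes tested). They included Kcnmb1, a subunit of the calcium-activated potassium channel (5.86), Mrvi1, a target of the cGMP kinase (4.40), and Gucy1a1, a subunit of soluble guanylyl cyclase (3.02). The endothelial nitric oxide synthase trafficking protein Nostrin was lower (-3.82). Of the 24 tested cyclase and cAMP genes, 12 were higher in VSMCs and 11 lower, led by Adcy1 (4.90) and, downward, the adenosine receptor gene Adora2a (-3.49) and the prostacyclin receptor gene Ptgir (-3.37). Among phosphodiesterases, 3 of 12 were higher and 7 lower (median -0.49), with the cGMP-specific Pde9a at -3.81. In the endothelin list 6 of 11 were higher and 5 lower, with the phospholipase Plcb4 at 3.01 and Mme, a peptidase that degrades endothelin, at -4.25.

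In endothelium against VSMCs, 5 were higher and 10 lower of the 18 nitric oxide and cGMP genes (median -0.54, over all genes -0.01). Kcnmb1 (-3.58), Gucy1a1 (-2.78) and its partner subunit Gucy1b1 (-2.44) were lower. The C-type natriuretic peptide gene Nppc (5.52) and Nostrin (4.52) were higher. In the cAMP list 10 of 24 were higher and 13 lower, with Adcy4 (4.34) and the exchange factor Rapgef3 (4.35) among the higher and Adcy1 (-3.09) the lowest. The other lists gave 5 higher and 6 lower of 11 (endothelin) and 5 higher and 3 lower of 12 (phosphodiesterases). Against fibroblasts, endothelium was higher for 10 and lower for 2 of the 18 nitric oxide and cGMP genes, led by Cav1, which binds the synthase (2.58). It was higher for 7 and lower for 1 of the endothelin genes, higher for 1 and lower for 6 of the phosphodiesterases, and higher for 7 and lower for 6 of the cAMP genes. All these values are log2 fold changes past the threshold in edgeR.

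The list counts were also taken without the cells that met more than 1 rule. In cells of 1 class, where 62.8% of 12017 genes differed between endothelium and fibroblasts, endothelium was higher for 10 and lower for 4 of 19 nitric oxide and cGMP genes, 9 and 1 of 11 endothelin genes, 2 and 6 of 12 phosphodiesterases and 7 and 8 of 24 cAMP genes. Cav1 was then at 4.11 and Adcy4 at 4.05. Against VSMCs, where 67% of genes differed, the counts were 7 and 9, 5 and 3, 5 and 5, and 7 and 13 in the same order. Kcnmb1 (-6.96), Gucy1a1 (-3.34) and Gucy1b1 (-3.11) stayed lower and Nppc (6.57) and Nostrin (5.40) higher.

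Within VSMCs the members also differed. The study used Notch3 and Enpep on one hand, and Ptprz1 and Tes on the other, to tell VSMC subsets apart by their place along the aorta. Here 541 VSMCs held at least 2 UMIs of Notch3 and Enpep and more than of the other pair, and 4605 met the reverse rule. They were compared in the 14 libraries with at least 10 cells of both kinds, where 25.8% of 5719 genes differed. Of the 6 members that passed the low-count filter, 3 were higher in the Notch3/Enpep cells and 1 was lower.

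Ednra stood furthest apart. In the Notch3/Enpep cells its lowest, median and highest values were 15.6, 29.0 and 106 CPM, and in the Ptprz1/Tes cells 1.31, 2.87 and 28.5. It was higher in the Notch3/Enpep cells of all 14 libraries, with a log2 fold change of 3.22 (SE 0.24, adjusted p = 1.45e-10). Ednra RNA is also abundant in pericytes, the mural cells of small vessels. Of the Notch3/Enpep cells, 102 held a UMI of the pericyte genes Higd1b or Vtn, against 2 of the Ptprz1/Tes cells, and pooled levels were 56.0 against 0.0391 CPM for Higd1b and 21.0 against 0.0195 for Vtn. Without such cells Ednra was at 19.1 ± 8.88 against 3.39 ± 2.42, and still higher in 12 of the 12 libraries that could be compared, but it fell under the low-count filter, so that no test was made.

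The other receptor gene, Ednrb, was uneven. It had a median of 0 in the Notch3/Enpep cells (10.1 ± 19.6 CPM) against 0.266 ± 0.418 in the Ptprz1/Tes cells (SD, n = 14), and was higher in 6 libraries, lower in 4 and equal in 4. The high values were 60.9 in Smad3SmKO 18 week replicate 7 and 49.1 in replicate 6. Without cells holding Higd1b or Vtn UMIs the mean was 1.75 ± 4.48, and it was higher in 3 of 12 libraries. The ligand gene ran the other way, since Edn1 was at 5.47 ± 4.93 in the Notch3/Enpep and 19.0 ± 8.75 in the Ptprz1/Tes cells and lower in 13 of 14 libraries (9 of 12 without Higd1b or Vtn cells). Edn1, Ednrb and Nos3 were under the low-count filter. With every gene of at least 1 UMI tested, the log2 fold change was -1.34 for Edn1 (adjusted p = 1.43e-06) and 4.23 for Ednrb (adjusted p = 7.75e-15). More genes were called in that fit than in the main one. Ednrb was higher in only 6 of 14 libraries, but this cannot tell whether the libraries share the difference. The Notch3/Enpep sums came from 10 to 80 cells per library. A sum with 0 UMIs there cannot be set apart from the Ptprz1/Tes level, which was at most 0.958 CPM.

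The cyclic nucleotide genes differed by less. Pde5a was lower in the Notch3/Enpep cells in 13 of 14 libraries, at 67.6 ± 18.2 against 107 ± 27.7 CPM, a log2 fold change of -0.55 (adjusted p = 0.000306). Pde3a was higher in 13, at 216 ± 51.6 against 165 ± 38.6 (0.44, adjusted p = 3.06e-05). Prkg1 was higher in 12, at 50.5 ± 20.9 against 33.9 ± 12.5 (0.58, adjusted p = 0.00351), and missed the threshold without Higd1b or Vtn cells (0.48, adjusted p = 0.0681). The 2 phosphodiesterases of the VSMC thus ran in opposite directions. Adcy5 (-0.15, adjusted p = 0.144) and Ece1 (0.34, adjusted p = 0.155) did not pass the test. All 12 genes of a digestion stress list were higher in the Notch3/Enpep cells (median 1.42), and the part of this in the members' values was not tested.

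**Figure D3:**
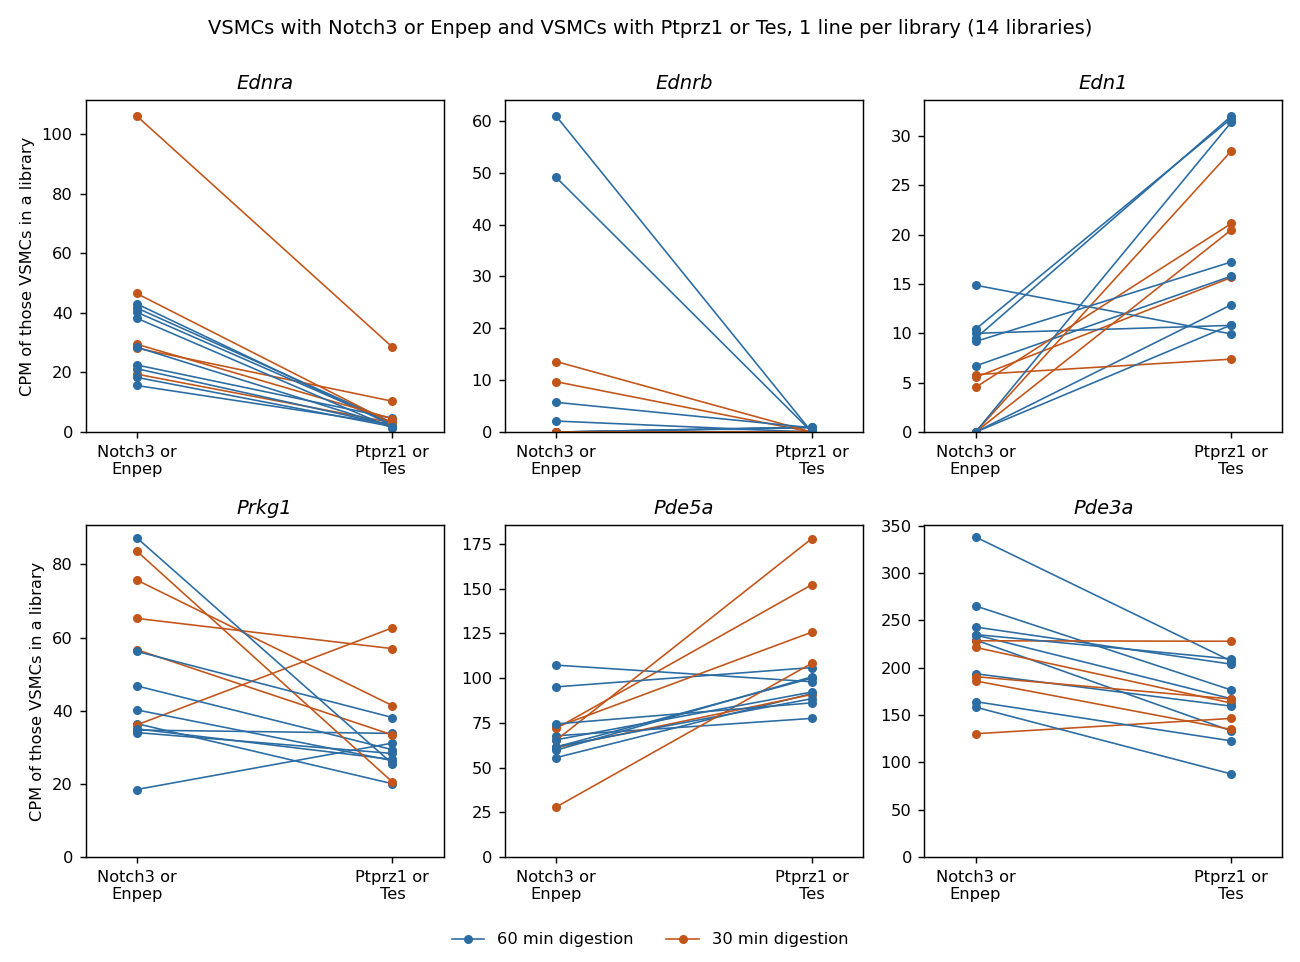
Levels of Ednra, Ednrb, Edn1, Prkg1, Pde5a and Pde3a, in CPM, in the Notch3/Enpep and the Ptprz1/Tes VSMCs of 14 libraries, 1 line per library. Every Ednra line is higher on the Notch3/Enpep side, Pde5a is lower there in 13 of 14, and Ednrb is near 0 but for a few libraries.

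Around them, the Notch3/Enpep cells had more of the soluble guanylyl cyclase subunit Gucy1a1 (1.30), the phosphodiesterase Pde1a (1.83), the protein kinase A inhibitor Pkig (1.27), the anchoring protein Akap12 (1.08) and Adcy6 (1.04). They had less of the natriuretic peptide receptor Npr1 (-2.26), Adcy1 (-1.95), Adcy7 (-1.82) and Plcb4 (-0.63). By list, 4 of 12 cAMP genes were higher and 3 lower, 1 and 2 of 11 nitric oxide and cGMP genes, 1 and 1 of 8 endothelin genes, and 1 and 0 of 4 phosphodiesterases.

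The Ednra level of all VSMCs and the share of Notch3/Enpep cells are given by digestion time, with no test of one against the other. In the 7 libraries digested for 30 min, these cells were 11.5 to 62.5% of VSMCs and Ednra ranged from 9.90 through 17.8 to 49.8 CPM. In the 9 libraries digested for 60 min the share was 1.45 to 15.0% and Ednra 3.12 to 6.52. The Ednra values of the digestions did not overlap, while the shares did. Single libraries are given as examples within a digestion time, and no ranking was tested. At 60 min the library with 15.0% had 5.78 and the one with 1.45% had 6.30. At 30 min 22.0% went with 49.8 (59 VSMCs, 23 Ednra UMIs) and 50.0% with 17.8 (22 VSMCs). Prkg1 was at 52.8 ± 18.6 after 30 min and 32.7 ± 3.74 after 60 min at 18 weeks (SD, n = 7 and 5). Digestion time, batch and cell makeup changed together and cannot be told apart. The summed digestion stress genes of VSMCs had medians of 7713 CPM after 30 min and 4891 after 60 min at 18 weeks.

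**Figure D4:**
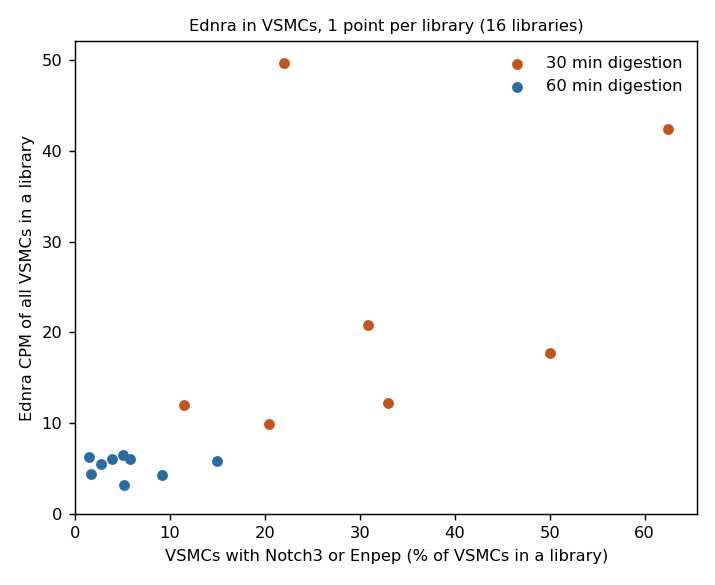
Share of Notch3/Enpep cells among VSMCs (percent, x axis) against the Ednra level of all VSMCs (CPM, y axis) in the 16 libraries, coloured by digestion time. The 30 min libraries lie at 9.90 or more on the y axis and the 60 min libraries at 6.52 or less.

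The genotype comparison asked whether loss of Smad3 in VSMCs changed these genes, by cell class and by time. Each fit took all 16 libraries with batch as a term. Smad3SmKO 18 week replicates 5 and 7 made up batch 5, which had no Smad3+/+ library. They thus count in the levels given below but do not inform the 18 week log2 fold changes. Of 11852 genes tested in VSMCs, 0% were called at 10 weeks, 0.0422% (5 genes) at 18 weeks and 0.00844% (1 gene) in the difference between the times. The gene called in the difference was the tracer GFP (log2 fold change 9.70), which was also called at 18 weeks (9.12). GFP went against the tracer labels of some libraries, as given above, so its calls are not read as an effect of Smad3 loss. In fibroblasts (14626 genes) and endothelium (11683 genes) 0% were called in each. For the 7 comparisons with a count of 0 in edgeR, 119 to 427 genes had an unadjusted p under 0.05, and DESeq2 called 0 to 7. No member was called in any of them, and with 2 libraries per genotype at 10 weeks the spread there is poorly known.

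Edn1 was the member with the largest genotype difference. In VSMCs at 18 weeks the Smad3+/+ libraries held 11.3, 7.45, 2.83, 8.95 and 9.96 CPM and the Smad3SmKO libraries 36.8, 12.1, 8.69, 21.3, 16.2, 21.4 and 26.0. Of the 7 Smad3SmKO libraries, 6 were above every Smad3+/+ library, and the means were 8.10 ± 3.27 and 20.4 ± 9.35. The log2 fold change was 1.24 (SE 0.40, adjusted p = 0.946, or 0.00713 before adjustment), which did not pass the test. At 10 weeks the libraries held 13.8 and 23.1 in Smad3+/+ and 9.07 and 17.7 in Smad3SmKO, a log2 fold change of -0.46 (SE 0.42), and the difference between the times was 1.70 (SE 0.58, unadjusted p = 0.0102, adjusted p = 1).

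Within batches at 18 weeks, Edn1 was higher in Smad3SmKO in 3 of 4 batches with libraries of each genotype, at 36.8 against 2.83, 21.3 against 7.45 and 21.4 against 9.46 CPM, and about level in the other, at 10.4 against 11.3. The values 36.8, 2.83 and 21.3 come from libraries of 59, 48 and 22 VSMCs. Over all libraries a single VSMC held up to 62 Edn1 UMIs, so 1 cell can weigh much in such small sums. The log2 fold change was 1.19 in the 30 min libraries, 1.31 in the 60 min libraries and 0.96 to 1.60 when single libraries were left out. With batch as a term, the 60 min value rests on Smad3SmKO replicate 6 against Smad3+/+ replicates 4 and 5. Without this tracer-labelled Smad3+/+ pair the Edn1 value was 1.16 (adjusted p = 0.783). That value rests on the 30 min batches, as 1.19 does, so these are not separate checks. In the Ptprz1/Tes VSMCs alone, Edn1 was at 11.0 ± 3.46 in 4 Smad3+/+ and 25.1 ± 6.29 in 6 Smad3SmKO libraries at 18 weeks (SD). The highest Smad3+/+ value was 15.7 and the lowest Smad3SmKO value 17.2. How many other genes part the groups in this way was not counted. These levels do not allow for batch, and the smallest library, Smad3SmKO replicate 1, held 12 such cells. The Smad3+/+ libraries included the tracer-labelled pair, and the Smad3SmKO libraries included replicates 5 and 7, whose batch had no Smad3+/+ library. The levels in these cells are not given without them.

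The Edn1 call depended on which genes were in the fit. With every gene of at least 1 UMI in the fit, 134 genes were called in VSMCs at 18 weeks and Edn1 was one of them (1.23, adjusted p = 0.000927), as it was in the difference between the times (1.69, adjusted p = 0.00469). An adjusted p is never under the unadjusted one, so the unadjusted p of Edn1 also fell, from 0.00713 in the main edgeR fit. Calls rose in VSMCs and endothelium at both times in this fit, so the call is not taken as a result about Edn1. In DESeq2 it was at 1.23 (unadjusted p = 0.00295, adjusted p = 0.586). In these VSMCs 10 endothelial markers summed to 32.5 ± 10.3 CPM in Smad3+/+ and 45.4 ± 30.9 in Smad3SmKO libraries. Edn1 was at 1.33 on the log2 scale in VSMCs of 1 class only. Leukocyte markers (87.5 ± 69.3 and 176 ± 189) and pericyte markers (454 ± 117 and 828.6 ± 394) were also higher on average in Smad3SmKO, with overlapping ranges, and digestion stress genes were not (7187 ± 2372 and 6459 ± 2941). The part of these marker genes, the endothelial ones included, in the Edn1 values was not tested. Leukocyte-marker cells themselves held Edn1 at 2.25 CPM (95% exact Poisson interval 1.64 to 3.00, counting error only), and Edn1 was at 1.25 without VSMCs holding Higd1b or Vtn UMIs.

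Edn1 had the same signs in the other classes, also without a call. In endothelium at 18 weeks the Smad3+/+ libraries held 91.1, 17.9, 65.7, 68.4 and 51.9 CPM and the Smad3SmKO libraries 36.0, 114, 235, 130, 168, 138 and 24.8. Of the latter, 5 were above and 2 within the Smad3+/+ range. The log2 fold change was 1.08 (SE 0.56, adjusted p = 0.999), and -1.05 (SE 0.84) at 10 weeks. In fibroblasts the values were 0.94 at 18 weeks (SE 0.43, adjusted p = 1.00) and -0.69 at 10 weeks (SE 0.65), with means of 13.9 ± 10.1 and 20.2 ± 18.5 CPM at 18 weeks that overlapped widely. These 3 classes come from the same libraries, share cells and are not independent repeats.

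**Figure D5:**
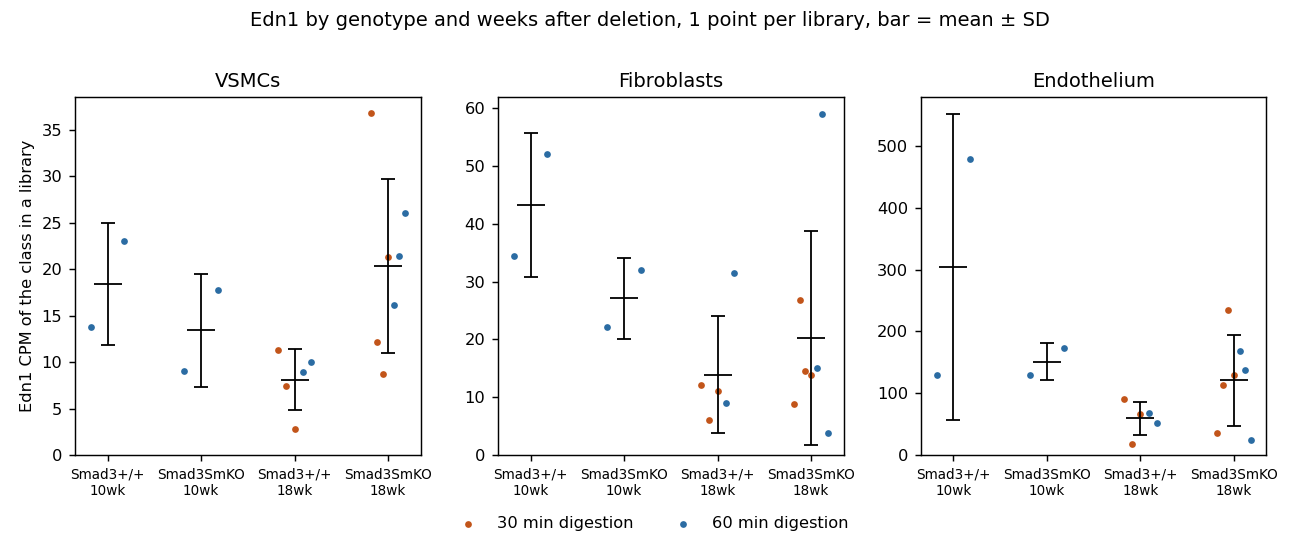
Edn1 levels, in CPM, in each library of the 4 groups for VSMCs, fibroblasts and endothelium, with the mean and SD. At 18 weeks 6 of 7 Smad3SmKO libraries lie above every Smad3+/+ library in VSMCs and 5 of 7 in endothelium, and at 10 weeks the Smad3SmKO means are the lower.

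Ece1 was not called either. In VSMCs at 18 weeks it was at 27.3 ± 3.97 CPM in Smad3+/+ and 41.7 ± 19.1 in Smad3SmKO libraries. Smad3SmKO was higher in 4 of 4 batches and 5 of 7 libraries were above every Smad3+/+ library, but the SD was set by replicate 3 at 79.3, and the log2 fold change of 0.47 (SE 0.31, adjusted p = 1) did not pass. In endothelium it was at 172 ± 39.4 and 229 ± 62.5, and the log2 fold change of 0.47 (SE 0.21, adjusted p = 0.999) turned to -0.17 in cells of 1 class. In fibroblasts the means were 91.6 ± 18.9 and 109 ± 15.1 (0.22, SE 0.17). At 10 weeks the log2 fold changes of Ece1 were 0.22 in VSMCs (SE 0.37), 0.03 in fibroblasts (SE 0.27) and -0.55 in endothelium (SE 0.35).

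The remaining members showed no genotype difference beyond the spread of the libraries. In VSMCs at 18 weeks the log2 fold changes were 0.08 for Ednra (SE 0.26), -0.14 for Prkg1 (SE 0.17), 0.17 for Pde5a (SE 0.16), -0.18 for Pde3a (SE 0.19) and -0.14 for Adcy5 (SE 0.14). At 10 weeks they were -0.31 (SE 0.32), 0.07 (SE 0.21), 0.28 (SE 0.22), 0.09 (SE 0.26) and -0.23 (SE 0.20) in the same order. Pde5a in fibroblasts at 18 weeks was higher in Smad3SmKO in 4 of 4 batches (24.9 ± 8.31 and 34.9 ± 10.9 CPM, 0.46, SE 0.24, adjusted p = 1.00). In endothelium at 18 weeks, Nos3 was at 20.2 ± 6.78 in Smad3+/+ and 19.6 ± 7.57 in Smad3SmKO libraries (0.25, SE 0.29), and Ednrb at 0.20 (SE 0.44).

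No gene of the 4 wider lists was called in any genotype comparison. In VSMCs 22 cAMP, 11 endothelin, 17 nitric oxide and cGMP and 11 phosphodiesterase genes were tested, and at 18 weeks their median log2 fold changes were -0.03, -0.01, -0.01 and 0.07, beside -0.01 over all genes.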

How the data were processed

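The authors made the deposited files, raw UMI counts per gene and barcode, from 10x Genomics 3′ libraries. The submitters' processing notes name Cell Ranger 6, Seurat 4 and mm10. The deposited counts were not normalized. Cells were kept by the study's limits, 600 to 6000 genes, 2000 to 50000 UMIs and under 25% mitochondrial UMIs. The study's own cell numbers before and after this filter are slightly lower. Doublets were not called. Counts were summed per library and class, where at least 10 cells were present, since cells are not replicates. The sums were tested with edgeR 4.0.16 in R 4.3.3 (TMM factors, filterByExpr, quasi-likelihood test, Benjamini-Hochberg adjustment over all genes tested). Genotype fits had batch and a genotype term per time, and class and subset fits had the library as a block. The SE was taken from the log2 fold change and its F. The test recovered changed genes on simulated data with a fixed spread, no batch effect and changes in higher-level genes only. Its power for low-level genes such as Edn1 in VSMCs was not measured. DESeq2 1.42.0, low-count filters, gates and left-out libraries were the alternatives. Levels, shares and intervals came from Python 3.11.15 with pandas 2.3.3, numpy 2.4.6 and scipy 1.17.1.

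Members with at least 10 CPM in the Smad3+/+ libraries of a class are described for genotype there. Of the wider lists (15 endothelin, 25 nitric oxide and cGMP, 17 phosphodiesterase and 27 cAMP genes), the genes named are those with the largest called folds, of which 1 is not reported here. The members, lists and tests were chosen with earlier results of these data known. Edn1, Ece1, Nos3, Pde3a and Prkg1 overlap genes on the opposite strand that are in the files. The strand setting of the counting is not given in the sources used here, and whether reads of such pairs were kept apart was not checked. Of the members, 7 of 9 had a promoter window in the RefSeq table (GRCm38.p6, 250 bases before to 50 after the start).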

Additional observations from a re-analysis of the deposited data

Results flagged for a closer look

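Of 42 groups of 5 or 7 libraries examined for a single library far from the rest, 14 were flagged, where chance flags about 1 in 20. In VSMCs these were Smad3SmKO 18 week replicate 1 for Ednra (49.8 CPM, others 3.12 to 17.8) and Prkg1 (75.7), a library of 59 VSMCs, and Smad3+/+ 18 week replicate 3 for Pde3a (291), a library of 48 VSMCs. In fibroblasts they were Edn1 in Smad3+/+ replicate 5 (31.5) and Smad3SmKO replicate 6 (59.0), Pde5a in Smad3+/+ replicate 5 (39.2) and Smad3SmKO replicate 7 (58.9), and Pde3a in Smad3SmKO replicate 7 (103), all at 18 weeks. In endothelium Smad3SmKO 18 week replicate 7 was low for Ece1 (102) and Nos3 (4.13) and high for Pde5a (114), Pde3a (160) and Adcy5 (134). That library had 31 endothelial cells, of which 27 also met another class rule. Nos3 was high in Smad3+/+ replicate 4 (32.2, highest of the others 18.8).

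Cells outside the 3 classes also held members. The 185 cells with pericyte markers held Ednra at 87.6 CPM (95% exact Poisson interval 71.3 to 106), Ednrb at 91.9 (75.2 to 111) and Pde5a at 134 (114 to 157). The 54 cells with heart muscle markers held Ednra at 36.9 (22.9 to 56.5). GFP UMIs were found in 2 libraries labelled without the tracer, 246 in Smad3SmKO 10 week replicate 1 and 165 in replicate 2. These values were not tested.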

How the results depend on the processing

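No paired analysis was possible because the replicate numbers follow the order of the libraries and pair nothing. Of 774 values of members under alternatives other than leaving out a library, 731 kept their direction and side of the threshold, 32 reversed, 9 gained and 2 lost a call, and of 957 values with a library left out 912, 42, 3 and 0 did so. No member was called for genotype except Edn1 with genes of at least 1 UMI, in VSMCs and in endothelium at 18 weeks (1.07, adjusted p = 3.03e-05) and in their differences between times. The cause of the changes below was not tested.

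Reversed genotype log2 fold changes at 18 weeks were, with no batch term, Ednra -0.53 in VSMCs, Prkg1 0.083 in fibroblasts, Nos3 -0.027 and Adcy5 0.92 in endothelium. With the 30 min libraries only they were Pde3a 0.071 and Ednra -0.076 in VSMCs, Ednrb -0.12 and Adcy5 0.27 in endothelium. With the 60 min libraries only they were Pde5a -0.072 and Prkg1 0.13 in VSMCs, Ednra -0.50 and Prkg1 0.053 in fibroblasts, Pde5a -0.51, Nos3 -0.12, Pde3a -0.86 and Ednra -0.58 in endothelium. Without the tracer-labelled Smad3+/+ pair they were Pde3a 0.024 and Ednra -0.13 in VSMCs, Ednrb -0.093 and Adcy5 0.26 in endothelium. In endothelial cells of 1 class they were Ece1 -0.17 and Nos3 -0.11, under stricter gates Ednra -0.23 (1.13 at 10 weeks), and in VSMCs without Higd1b or Vtn, an alternative chosen after the data were seen like that on shared barcodes, Ednra -0.28. Between classes, cells of 1 class gave Nos3 0.071 in VSMCs against fibroblasts, Ednra -0.68 in endothelium against VSMCs, and Pde5a -1.59, Pde3a -1.70 and Adcy5 -1.18 in endothelium against fibroblasts, the last of these a reversed call. Stricter gates gave Pde5a -0.35 and Pde3a -0.016 there, and Prkg1 -0.61 (adjusted p = 0.00400). Endothelium against VSMCs for Ednra passed without Higd1b or Vtn VSMCs (0.83, adjusted p = 0.0126) and without Smad3+/+ 18 week replicate 3 (0.68, adjusted p = 0.0413), and Pde3a against fibroblasts passed in DESeq2 (0.30, adjusted p = 0.0445) and without Smad3SmKO 18 week replicate 6 (0.33, adjusted p = 0.0416).

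Counts of called genes moved as follows. DESeq2 called 1, 8 and 2 genes in VSMCs (10 weeks, 18 weeks, difference), 3, 3 and 1 in fibroblasts and 7 and 6 in endothelium (10 weeks, difference). Genes of at least 1 UMI gave 51, 134 and 70 in VSMCs, 38, 120 and 32 in endothelium and 2571 between the VSMC subsets. In VSMCs at 18 weeks the count was 1 with no batch term (difference 0), 3 with the 18 week libraries alone, 1 with 60 min only, 2 without the tracer-labelled pair, 3 under stricter gates (846 between subsets) and 3 without Higd1b or Vtn cells. Endothelium against fibroblasts gave 7552 in cells of 1 class.

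Leaving out single libraries gave 2 to 6 genes in VSMCs at 18 weeks and 0 to 1 in the difference. Member ranges that crossed 0 were, at 10 weeks, in VSMCs Ece1 -0.0076 to 0.40, Edn1 -1.01 to 0.086, Pde3a -0.031 to 0.23 and Prkg1 -0.057 to 0.26. In fibroblasts they were Ece1 -0.31 to 0.31 (difference -0.082 to 0.54), Ednra -0.28 to 0.53, Pde3a -0.42 to 0.27, Pde5a -0.50 to 0.44 and Prkg1 -0.20 to 0.25. In endothelium they were Adcy5 -1.31 to 1.59, Edn1 -1.71 to 0.26, Ednra -0.80 to 0.19, Ednrb -0.98 to 0.46, Nos3 -1.06 to 0.017, Pde3a -0.29 to 0.95 and Pde5a -0.92 to 0.63. At 18 weeks they were Ednra -0.11 to 0.19, Pde3a -0.36 to 0.040 and Pde5a -0.046 to 0.31 in VSMCs, Prkg1 -0.33 to 0.078 in fibroblasts, and Adcy5 -0.25 to 0.27, Ednra -0.18 to 0.34, Ednrb -0.085 to 0.74, Pde3a -0.022 to 0.55 and Pde5a -0.045 to 0.47 in endothelium. Depth limited Ednrb and Nos3 in VSMCs, where 4 libraries of 22 to 97 VSMCs held 0 UMIs of one or both.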

Other observations

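Further values of other cells complete the map. Cells with leukocyte markers (2639) held Ednrb at 31.9 CPM (95% exact Poisson interval 29.5 to 34.4), 23.9% of all Ednrb UMIs in kept cells, and a UMI of it was found in 3.33% of them at 2000 UMIs per cell. Their Ece1 was at 14.7. The 110 cells with Schwann cell markers held Ednrb at 35.7 (21.5 to 55.7) and Ece1 at 86.4 (63.2 to 115), while Edn1, Ednra and Nos3 had 0 UMIs there, which allows up to 5.63 CPM (3 UMIs, counting error only). Pericyte-marker and heart-marker cells held Pde3a at 102 and 104.

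The genes most like each member over the 16 libraries were taken within the class where its mean was highest, by Pearson's r of log2 levels among genes of at least 20 CPM. These libraries share depth, digestion and cell makeup, and the values are a description. In endothelium Nos3 was most like Gngt2 (r = 0.88), Jam2 (0.88) and Mall (0.86), Edn1 like Gm26532 (0.79), Icam2 (0.79) and Mrps5 (0.77), Ednrb like Vamp3 (0.87) and Gja4 (0.84), and Ece1 like Stab1 (0.81) and Rrp8 (0.80). In fibroblasts Ednra was most like Ids (0.94), Fam198b (0.92) and Fry (0.92). In VSMCs Prkg1 was most like Cab39 (0.92), Ppp1r12a (0.91) and Uba2 (0.91), Pde5a like Asrgl1 (0.85) and Ap3d1 (0.83), Pde3a like Nfib (0.89), Fam168a (0.89) and Atp1b3 (0.89), and Adcy5 like Pgm5 (0.90), Amotl1 (0.84) and Gnao1 (0.83).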
